A study of Sus scrofa with 12 samples.

Results

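The genes described here are the machinery of regulated cell death: BCL-2 family proteins, caspases, death receptors, and the kinases and pore proteins of necroptosis and pyroptosis. They were listed as 37 gene names and looked up among the names in the authors' deposited table, where 29 of the 37 were found among 21223 genes. Of these 29, 26 had enough counts to be tested and 3 (BCL2A1, HRK and ENDOG) did not. The other 8 names (BCL2, BCL2L2, BBC3, PMAIP1, BIK, XIAP, BIRC2 and TNFRSF10B) had no row under that name.

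In the intrinsic pathway of apoptosis, BH3-only proteins sense damage and relieve the block that anti-apoptotic BCL-2 proteins hold on BAX and BAK, whose pores let cytochrome c out of mitochondria to build the apoptosome with APAF1 and activate caspase 9. In the extrinsic pathway, death receptors such as FAS and the TNF receptor recruit FADD and caspase 8, and where caspase 8 is blocked the kinases RIPK1 and RIPK3 can instead activate MLKL and burst the cell by necroptosis. Pyroptosis runs through caspase 1 and the pore protein gasdermin D, and is best known in myeloid cells such as microglia. The neonatal brain is known for a ready use of apoptosis after loss of oxygen, and much of this machinery is set by protein cleavage and movement between compartments, which RNA levels do not read.

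RNA labelled as striatum, a deep forebrain region rich in inhibitory spiny projection neurons, was sequenced from newborn piglets, 6 in a sham group and 6 in a group that underwent deep hypothermic cardiac arrest (DHCA). The DHCA piglets were anaesthetised with 4% isoflurane, connected to cardiopulmonary bypass through the sternum, cooled to 18 °C, left for 30 min without circulation, rewarmed to 37 °C on bypass and kept for a further 6 h. The sham piglets received 4% isoflurane anaesthesia, which both groups share, and the labels give them no surgery, bypass or cooling. Each difference therefore stands for the whole procedure at a single time, and the labels name no strain, sex or age in days.

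The libraries held 1377809 to 12933536 counts, so that 1 CPM (counts per 1000000, after TMM scaling) stood for 1.5 to 13.7 counts, and the genes described here took 1007 to 9960 counts per library. Sham 5 and Sham 1 were the shallowest, with 1377809 and 2515816 counts, and had the smallest share of mitochondrial counts, 7.30% and 4.01% against 10.6% to 26.3% elsewhere. Sham 4 goes against its tissue label: its summed level of 15 spiny projection neuron markers was 483 CPM against 3480 to 8230 CPM in the other libraries, and that of 7 cortical excitatory neuron markers was 1160 CPM against 5.99 to 28.0 CPM. In DHCA 3 the summed oligodendrocyte markers reached 67000 CPM against 4700 to 34300 CPM elsewhere.

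After DHCA, none of the 26 tested cell death genes passed the edgeR quasi-likelihood test over all genes at an adjusted p under 0.05, where the background was 26 of 14004 genes (0.186%). The anti-apoptotic gene MCL1 came closest, with 88.5 ± 16.7 CPM in sham libraries and 144 ± 15.4 CPM in DHCA libraries (SD, n = 6 per group). It was the 1 gene of the 26 called by DESeq2 and by limma-voom with sample quality weights, where the background was 1.24% and 1.48% of genes, while limma-voom without weights called 0 of the 26 (background 0.193%). At an unadjusted p under 0.05 edgeR found 4 of the 26 genes (15.4%), against 7.9% of all tested genes. MCL1 and the TNF family receptors TNFRSF1A and TNFRSF12A were the 3 on the higher side (background 3.43%), and the DNA damage enzyme PARP1 was the 1 on the lower side (background 4.47%). The 26 log2 fold changes, DHCA minus sham, ran from -0.52 to 0.71, with 13 above and 13 below 0. Their median was -0.02 and that of all tested genes -0.003. In bulk tissue, fewer cells of a type and less RNA per cell cannot be told apart.

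**Figure D1:**
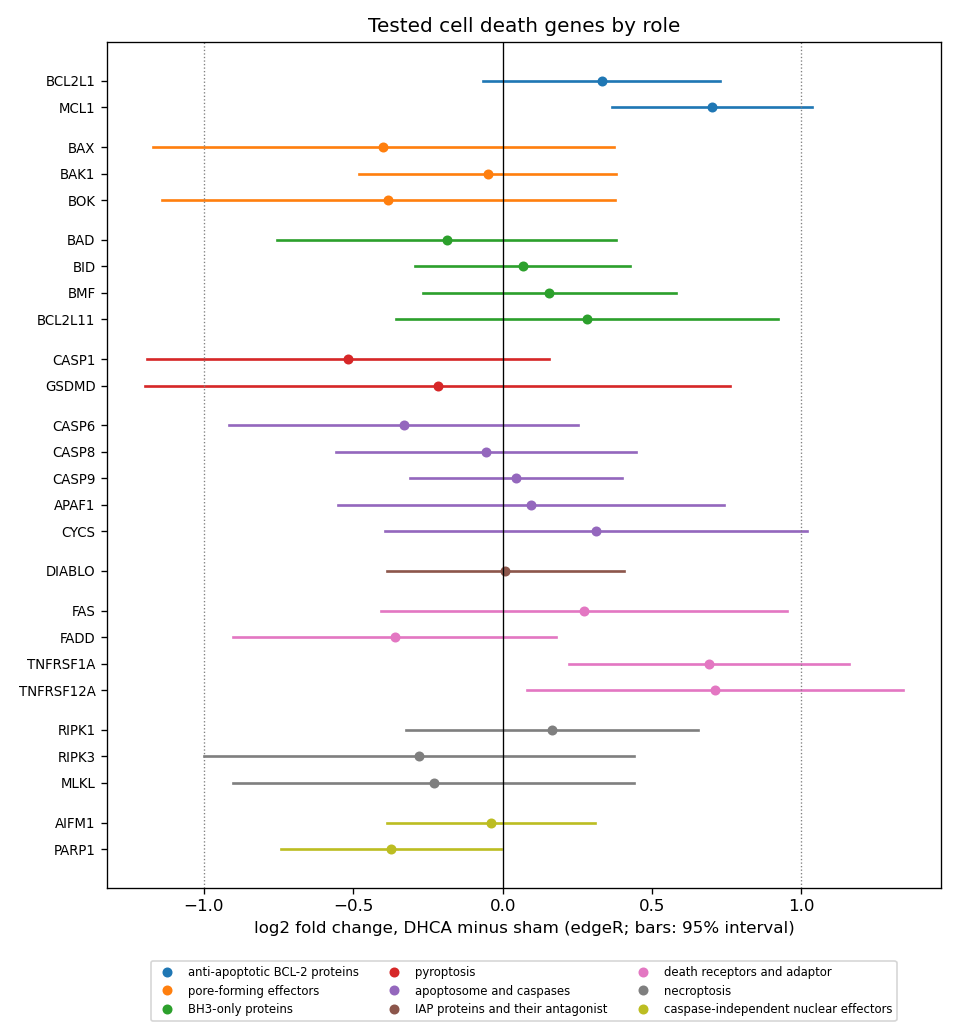
Log2 fold change of each of the 26 tested genes, DHCA minus sham, from the edgeR fit (x axis, points) with its 95% interval (bars), coloured by the role of the protein. MCL1, TNFRSF1A and TNFRSF12A have intervals above 0 and PARP1 has one below 0, before any adjustment for the number of genes tested.

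For 17 of the 26 genes (65.4%) the 95% interval lay inside log2 -1 to 1, a range of 2-fold either way, as it did for 10017 (71.5%) of all tested genes. The intervals of MCL1, BAX, BOK, CASP1, CYCS, TNFRSF1A, TNFRSF12A, RIPK3 and GSDMD reached beyond it. A missed threshold therefore does not show equal levels in these 9 genes. In the other 17 the interval stayed within 2-fold in the edgeR fit with all 12 libraries, before any adjustment for the number of genes tested. That bound need not hold in other fits. FAS was at 0.41 (SE 0.32) without Sham 1, and CASP6 at -0.50 (SE 0.26) without Sham 1 and Sham 5.

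MCL1 encodes an anti-apoptotic BCL-2 protein with a short-lived messenger RNA and protein. In the sham libraries the lowest, median and highest values were 65.2, 90.1 and 107 CPM, and in the DHCA libraries 124, 143 and 168 CPM. Every DHCA library lay above every sham library, a separation seen in the same direction in 0.678% of all tested genes and in no other of the 26. Its log2 fold change was 0.70 (SE 0.16, 95% interval 0.37 to 1.03), a 1.63-fold difference, with an adjusted p of 0.116 (edgeR). DESeq2 gave 0.69 with adjusted p = 0.00129 and limma-voom with quality weights 0.53 with adjusted p = 0.0394. In the authors' deposited table MCL1 has a log2 fold change of 0.70 and an adjusted p of 0.0172, and it is the 1 gene of the 28 with an adjusted p there that is under 0.05 (background 1.29%).

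The edgeR value for MCL1 stayed between 0.63 and 0.77 when any 1 library was left out, with adjusted p between 0.0697 and 0.295. Without Sham 1, Sham 4 and Sham 5 together it was 0.49 (SE 0.14, adjusted p = 0.467). Across all alternatives the adjusted p ran from 0.00129 to 0.467, and whether MCL1 is called depends on the tool. The fits that left out libraries used edgeR, and none of them called MCL1. The annotated MCL1 (ENSSSCG00000039314, chromosome 4, 98527907 to 98568965, Sscrofa11.1) spans 41059 bases and shares 516 of its 6374 exon bases with the upstream gene ENSA on the same strand. ENSA itself had a log2 fold change of -0.06 (SE 0.15, adjusted p = 0.931, edgeR).

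**Figure D2:**
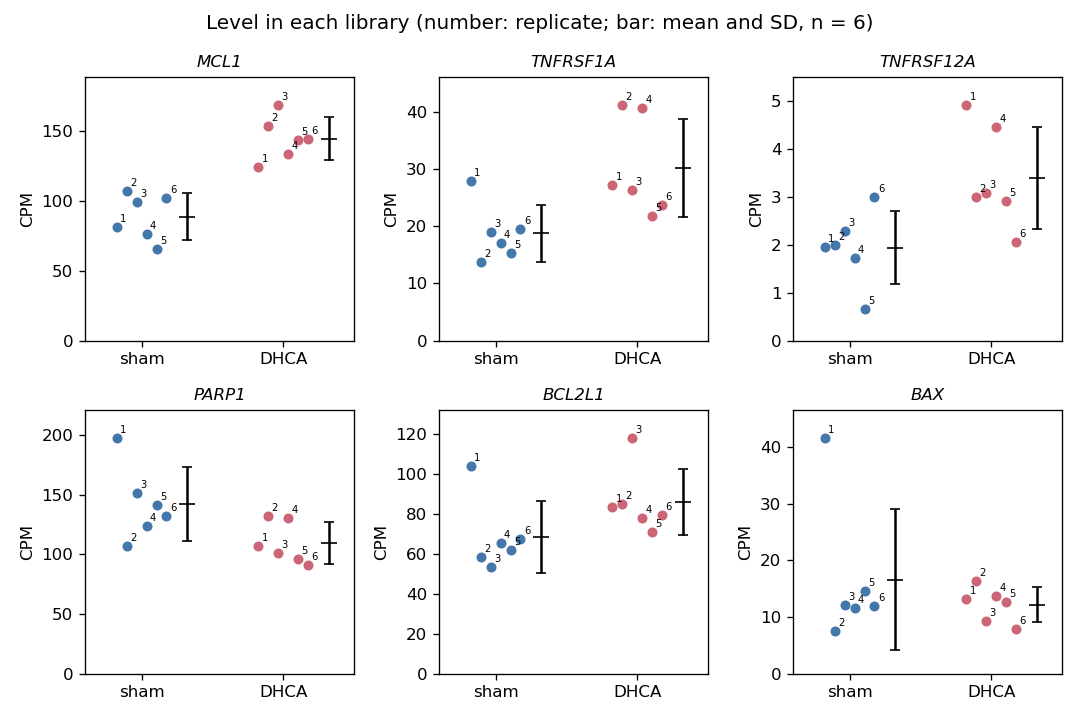
Level in CPM (y axis, from 0) of MCL1, TNFRSF1A, TNFRSF12A, PARP1, BCL2L1 and BAX in each of the 6 sham and 6 DHCA libraries (points, numbered by replicate), with the group mean and SD as a bar. The 6 DHCA libraries lie above all sham libraries for MCL1, and Sham 1 stands above the other sham libraries for TNFRSF1A, PARP1, BCL2L1 and BAX.

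BCL2L1, which encodes the anti-apoptotic protein BCL-xL, is described because of what was seen in its values, not by the rule for named genes. Sham values were 53.5, 63.7 and 104 CPM (lowest, median, highest) and DHCA values 71.0, 81.5 and 118 CPM. Sham 1 alone made the groups overlap: the other 5 sham libraries reached at most 67.3 CPM, below every DHCA library. The log2 fold change was 0.33 (SE 0.19, edgeR adjusted p = 0.744) with Sham 1 and 0.48 (SE 0.15, adjusted p = 0.291) without it, so it did not pass in either fit, though without Sham 1 it was under the unadjusted threshold. BCL2L1 lies on chromosome 17 (35315475 to 35415778), and 1994 of its 8165 exon bases are also exon of ID1 on the opposite strand, which had 31 counts in all 12 libraries. ID1 was at 3.49 CPM in Sham 1 and at 0.142 to 0.666 CPM in the other sham libraries. The part of this overlap in the Sham 1 value of BCL2L1 was not tested. BCL2A1, the third anti-apoptotic gene with a row, had 38 counts in all, with 0 to 7 per sham library and 1 to 8 per DHCA library, and was not tested.

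The 3 pore-forming effectors had log2 fold changes below 0 and adjusted p of 0.819 to 0.959 (edgeR), with a median of -0.38. That median was -0.024 without Sham 1, -0.13 without Sham 4 and 0.16 without Sham 1, Sham 4 and Sham 5. BAK1 had the highest length-scaled sham level of them and the smallest difference, with 18.0, 27.2 and 33.3 CPM in sham and 15.0, 25.5 and 29.8 CPM in DHCA (lowest, median, highest) and a log2 fold change of -0.05 (SE 0.20). The groups covered nearly the same range. BAX, the effector that moves from the cytosol to mitochondria, reached 41.5 CPM in Sham 1 and 7.57 to 14.6 CPM in the other sham libraries, beside 7.83 to 16.3 CPM in DHCA. Its log2 fold change turned from -0.40 (SE 0.36) with Sham 1 to 0.10 (SE 0.21) without it, so it has no settled direction. BOK, a less studied effector, was at -0.38 (SE 0.35) with all libraries and -0.11 (SE 0.33) without Sham 4, which held its highest value.

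The ratio of MCL1 to BAX, both per kilobase of exon, was 1.17, 8.45, 4.88, 3.96, 2.66 and 5.07 in Sham 1 to 6 and 5.62, 5.62, 10.9, 5.85, 6.73 and 11 in DHCA 1 to 6. Sham 2 fell among the DHCA libraries and the other 5 sham libraries lay below all of them. The pair was chosen after its values were seen, so the ratio is a description and was not tested.

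Among the BH3-only genes, which encode the damage sensors that start mitochondrial apoptosis, 4 were tested, with a smallest adjusted p of 0.830 (edgeR). BAD, which links growth factor signalling to BCL-xL, had the highest length-scaled level in sham. It gave 8.82, 16.6 and 25.6 CPM in sham and 8.30, 14.4 and 19.8 CPM in DHCA (lowest, median, highest), a log2 fold change of -0.19 (SE 0.26). Sham 1 was the highest of all 12 libraries, and without it the value was -0.028 (SE 0.24). BID, which caspase 8 cleaves to join the extrinsic to the mitochondrial pathway, was at 0.07 (SE 0.17), and BMF at 0.16 (SE 0.20). BCL2L11, which encodes BIM, was near the depth limit with means of 1.72 ± 0.572 (sham) and 2.15 ± 0.660 CPM (DHCA) and a log2 fold change of 0.28 (SE 0.30, or 0.18 without Sham 1). HRK, a neuronal BH3-only gene, had 18 counts in all 12 libraries and was not tested.

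The group listed as death receptors and adaptor held 2 of the 3 genes with an unadjusted p under 0.05 on the higher side. TNFRSF1A, the main receptor for tumour necrosis factor (ENSSSCG00000000708, chromosome 5, 64319044 to 64335527), had 13.8, 18.1 and 27.9 CPM in sham and 21.8, 26.9 and 41.2 CPM in DHCA (lowest, median, highest). Sham 1 held the 27.9 CPM; the other 5 sham libraries reached at most 19.5 CPM, below all DHCA libraries, of which DHCA 2 and DHCA 4 were the highest. The difference was 0.69 on the log2 scale (SE 0.22, edgeR adjusted p = 0.354), and 0.82 (SE 0.20, adjusted p = 0.137) without Sham 1. It was under the unadjusted threshold in all 12 fits that leave out 1 library, as was MCL1. Adjusted p for TNFRSF1A ran from 0.0627 to 0.735 over the alternatives, and in the authors' deposited table it is 0.0867. PLEKHG6 on the opposite strand shares 2276 of the 5982 exon bases of TNFRSF1A and had 18 counts in all 12 libraries. PLEKHG6 was at 3.88 CPM in Sham 1 and at 0 to 0.284 CPM in the other sham libraries. The part of this overlap in the Sham 1 value of TNFRSF1A was not tested.

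TNFRSF12A encodes the receptor for TWEAK and is known as an injury-induced gene (ENSSSCG00000027130, chromosome 3, 39166292 to 39168358). Its sham values were 0.666, 1.97 and 3.00 CPM and its DHCA values 2.06, 3.03 and 4.90 CPM (lowest, median, highest), with DHCA 1 and DHCA 4 on top and DHCA 2, DHCA 5 and DHCA 6 inside the sham range. At 0.71 (SE 0.29, edgeR adjusted p = 0.558), its log2 fold change was the largest in size of the 26. It stayed under the unadjusted threshold in 9 of the 12 fits that leave out 1 library, not without Sham 4, DHCA 1 or DHCA 4, and without Sham 1, Sham 4 and Sham 5 the log2 fold change was 0.49 (SE 0.30). In Sham 5 the value of 0.666 CPM is under the 2.00 CPM that 3 counts stand for there.

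FAS, the receptor for FAS ligand, was at 0.27 (SE 0.32, edgeR adjusted p = 0.837). FADD, the adaptor that brings caspase 8 to FAS, had the highest length-scaled sham level of the group. Its values were 13.0, 27.8 and 36.8 CPM in sham and 12, 22.3 and 26.2 CPM in DHCA (lowest, median, highest). The ranges overlapped, and the log2 fold change was -0.36 (SE 0.25, adjusted p = 0.784). Thus the receptors and FADD lay on different sides of 0, with no member called.

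Marker levels of other cells are given beside the receptors. Summed levels of 14 microglia markers found, of 16 listed, were 260 to 439 CPM in sham and 260 to 382 CPM in DHCA. For endothelium, 12 of 13 markers were found, summing to 319 to 588 CPM in sham and 354 to 406 CPM in DHCA, with Sham 1 at 588 CPM and EGFL7 at 0 in every library. Neutrophil markers (7 of 9) summed to 3.55 to 10.1 and 5.04 to 10.8 CPM, and monocyte markers (5 of 6) to 140 to 495 and 269 to 531 CPM, mostly from VCAN, which oligodendrocyte precursors also express (300 ± 119 and 328 ± 103 CPM). Red blood cell markers (4 of 6) summed to 37.2 to 241 CPM in sham and 26.9 to 67.2 CPM in DHCA.

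Single markers within these sums lay on different sides of 0, and none of them was called by edgeR. The microglia marker TYROBP was higher in every DHCA library (5.00 to 7.21 CPM) than in every sham library (0.388 to 4.76 CPM), with edgeR adjusted p = 0.501, and so was the monocyte marker LYZ (0.815 to 1.90 against 0 to 0.749 CPM), which was too low to be tested. CD14, another monocyte marker, averaged 9.15 ± 6.00 CPM (sham) and 19.1 ± 4.69 CPM (DHCA). Its log2 fold change was 1.08 with edgeR (SE 0.35, adjusted p = 0.384) and 1.19 with weighted limma-voom (adjusted p = 0.0388). On the lower side, weighted limma-voom put the microglia markers CX3CR1 at -1.64 (adjusted p = 0.0153) and TREM2 at -0.85 (adjusted p = 0.0267). It put the endothelial marker TEK at -1.12 (adjusted p = 0.0155). With edgeR the 3 were at -1.26, -0.62 and -0.95. The other members of these lists did not all go that way. With edgeR, 4 of 11 tested endothelial markers were above 0 and 7 below, and 5 of 14 microglia markers were above and 9 below. The endothelial marker CDH5 was at 0.67 (SE 0.21, edgeR adjusted p = 0.354). SALL1 of microglia and the red cell globin HBB, at -0.62 and -1.64 with edgeR, had DESeq2 adjusted p of 0.0372 and 0.00485. The part of these cells in the receptor values was not tested.

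Of the apoptosome and caspase genes, 3 had log2 fold changes above 0 and 2 below, with a smallest adjusted p of 0.811 (edgeR), and their median was 0.04. CYCS, which encodes cytochrome c, had the highest length-scaled level of them, with 14, 57.7 and 82.5 CPM in sham and 49.6, 58.2 and 88.5 CPM in DHCA (lowest, median, highest). The medians nearly met, and the spread in sham came from Sham 1 at 14 and Sham 5 at 30.0 CPM, the libraries with the smallest mitochondrial share. The log2 fold change was 0.31 (SE 0.33), and -0.03 without both. APAF1, the scaffold of the apoptosome, ranged from 24.8 to 80.9 CPM in sham and from 36.8 to 100 CPM in DHCA (0.09, SE 0.30, or -0.060 without Sham 1).

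The initiator CASP9 was among the most even genes, with 22.2 ± 3.14 CPM in the sham group and 22.9 ± 4.41 CPM in the DHCA group, a log2 fold change of 0.04 (SE 0.17, 95% interval -0.31 to 0.40). CASP8, the initiator at death receptors and the brake on necroptosis, was at 6.52 ± 2.10 and 6.41 ± 1.28 CPM (-0.06, SE 0.23). The executioner CASP6 was at 3.73 ± 1.20 and 3.12 ± 0.934 CPM (-0.33, SE 0.27). DIABLO, whose protein leaves mitochondria to neutralise the caspase-blocking IAP proteins, had 11.3, 19.6 and 23.5 CPM in sham and 16.6, 19.2 and 22.9 CPM in DHCA (lowest, median, highest). The DHCA range of DIABLO lay inside that of sham, with a log2 fold change of 0.01 (SE 0.18, edgeR adjusted p = 0.996).

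The necroptosis kinases and their executioner showed no call. RIPK1, the kinase at the fork between survival signalling and death, had 30.5, 38.1 and 64.8 CPM in sham and 34.0, 41.4 and 72.2 CPM in DHCA (lowest, median, highest). Sham 1 and DHCA 4 stood above the rest of their groups, and the other values overlapped. The log2 fold change was 0.17 (SE 0.23, edgeR adjusted p = 0.863), and 0.33 (SE 0.20, adjusted p = 0.789) without Sham 1. RIPK3, which phosphorylates MLKL, was low, with 2.86 ± 1.17 CPM in sham libraries and 2.31 ± 0.634 CPM in DHCA libraries (-0.28, SE 0.34, or -0.49 without Sham 4). MLKL, which opens the plasma membrane, was at 6.59 ± 3.11 and 5.44 ± 1.54 CPM (-0.23, SE 0.31), with Sham 1 the highest library, and its log2 fold change without Sham 1 was -0.017 (SE 0.29).

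Both pyroptosis genes had estimates below 0 with wide intervals. CASP1, the inflammasome caspase, had 1.62 to 5.33 CPM in sham libraries and 1.27 to 2.89 CPM in DHCA libraries, with Sham 5 and Sham 2 on top (log2 fold change -0.52, SE 0.31, 95% interval -1.19 to 0.16, edgeR adjusted p = 0.762). GSDMD, the pore protein it cleaves, had 3.99, 10.4 and 31.8 CPM in sham and 3.84, 10.2 and 16.1 CPM in DHCA (lowest, median, highest). The medians were alike and Sham 1 alone held the 31.8 CPM. The log2 fold change of GSDMD was -0.22 (SE 0.46, adjusted p = 0.912) with Sham 1 and 0.30 (SE 0.36, adjusted p = 0.971) without it.

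PARP1, which senses DNA breaks and whose overactivation can kill cells without caspases (ENSSSCG00000023660, chromosome 10, 14203645 to 14240972), had 107, 137 and 197 CPM in sham and 91.1, 104 and 132 CPM in DHCA (lowest, median, highest). Sham 1 was the highest library at 197 CPM, and DHCA 2 and DHCA 4 lay inside the sham range. On the log2 scale PARP1 differed by -0.37 (SE 0.17, edgeR adjusted p = 0.625). Without Sham 1 it was -0.26 (SE 0.14, adjusted p = 0.753), and it was under the unadjusted threshold in 4 of the 12 fits that leave out 1 library (without Sham 2, Sham 4, DHCA 2 or DHCA 4). AIFM1, the mitochondrial flavoprotein that moves to the nucleus in PARP1-dependent death, averaged 20.8 ± 3.19 CPM in sham libraries and 20.2 ± 3.33 CPM in DHCA libraries (-0.04, SE 0.16). ENDOG, a mitochondrial nuclease, had 42 counts in all 12 libraries and was not tested.

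**Figure D3:**
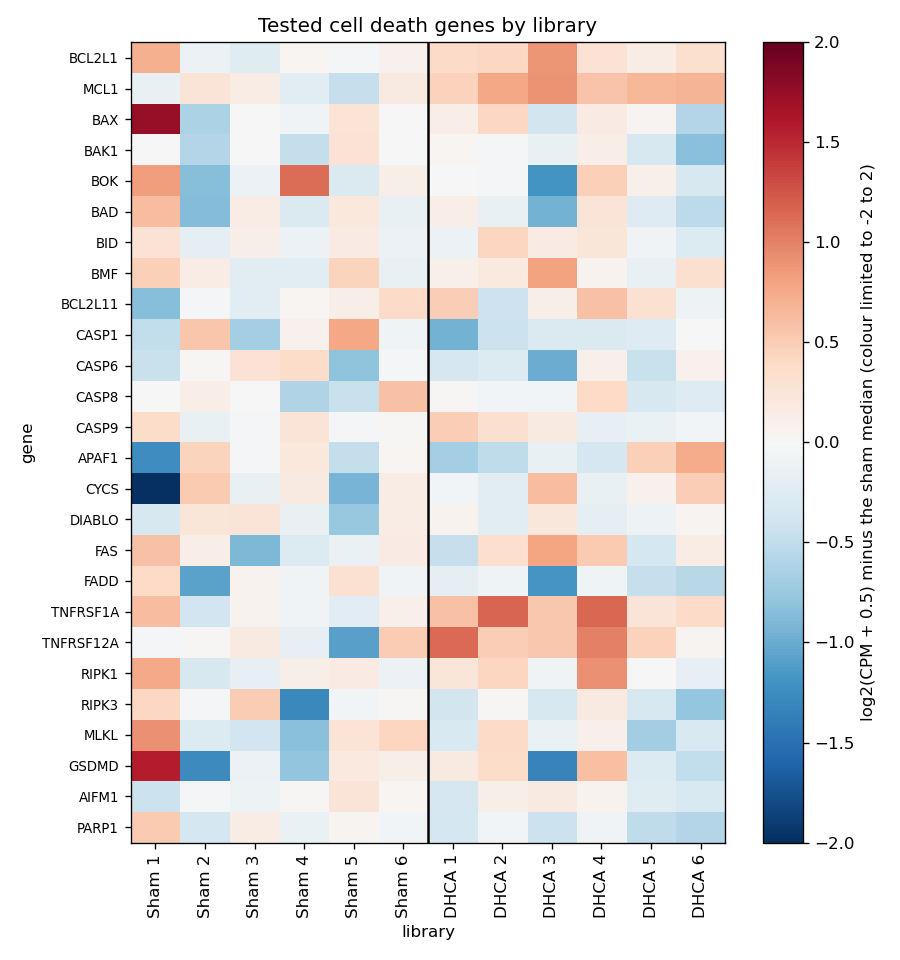
Log2(CPM + 0.5) of each tested gene (rows, by role) in each library (columns) minus the sham median of that gene, with colour limited to -2 to 2. The strongest colours among the sham libraries are in Sham 1, above the median for BAX and GSDMD and below it for CYCS, and MCL1 is the 1 row in which every DHCA library is above every sham library.

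Part of the spread within sham lay in 1 library, Sham 1. Sham 1 was above all 5 other sham libraries in 13 of the 26 genes, below all in 4 (BCL2L11, APAF1, CYCS and AIFM1) and between them in 9. Relative to the median of the other sham libraries, it stood at 3.46 times for BAX, 3.32 times for GSDMD and 2.41 times for MLKL, and at 0.219 times for CYCS and 0.407 times for APAF1. Sham 2, with 12637277 counts, was above all 5 other sham libraries in 3 of the 26 genes and below all in 11. Such counts of extreme libraries, in sham or DHCA, were not made over all tested genes. Whether they are particular to the cell death genes was therefore not tested. The median coefficient of variation over the 26 genes was 32.2% in sham, 25.7% in sham without Sham 1 and 25.7% in DHCA. Sham 1 also had the lowest mitochondrial share of the 12 libraries, 4.01%, and the highest endothelial marker sum, 588 CPM. The part of these in its cell death values was not tested.

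In the DHCA group, DHCA 4 was the highest library for 10 of the 26 genes, among them RIPK1, GSDMD, BOK and BAD. DHCA 6 was the lowest for 7, among them BAX, BAK1 and PARP1, and DHCA 3, the library with the most oligodendrocyte signal, was the highest for 7 and the lowest for 5. No DHCA library was extreme in as many genes as Sham 1.

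**Figure D4:**
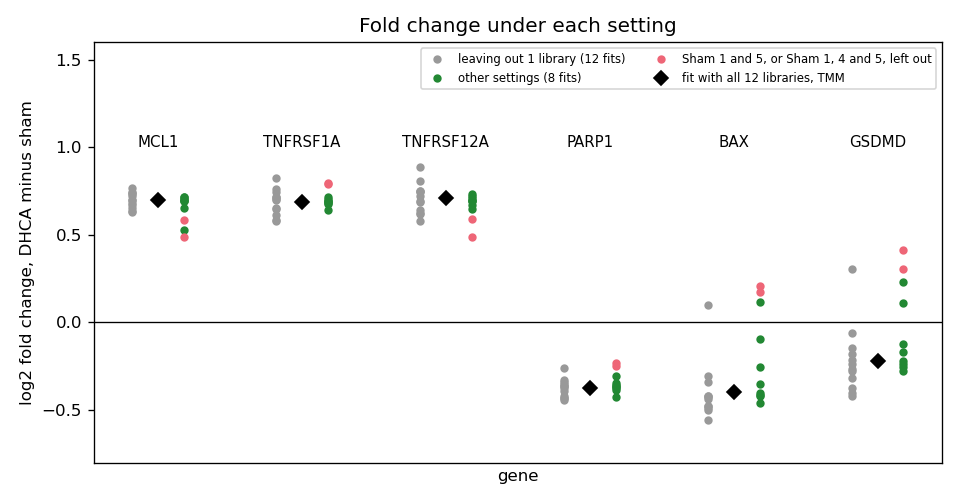
Log2 fold change, DHCA minus sham (y axis), of MCL1, TNFRSF1A, TNFRSF12A, PARP1, BAX and GSDMD with all 12 libraries and TMM scaling (diamonds), with 1 library left out (grey points), with Sham 1 and 5 or Sham 1, 4 and 5 left out (red points) and under other scalings, filters and tools (green points). The first 4 genes keep their direction in every setting, while BAX and GSDMD lie on both sides of 0.

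Levels were compared between genes as CPM per kilobase of exon in the sham group. The full exon length was used, while reads in exon bases shared with another gene may be lost, which can lower some genes more than others. Shared with a single other gene were, among others, 469 of 1018 exon bases of ENDOG, 959 of 2483 of CASP6 and 2276 of 5982 of TNFRSF1A. For BAX it was 937 of 3806, for BCL2L1 1994 of 8165 and for MCL1 516 of 6374. PARP1 was highest at 47.1 ± 10.2, followed by CYCS at 36.1 ± 17.8, BAD at 14.3 ± 4.91 and MCL1 at 13.9 ± 2.61 CPM per kilobase (SD, n = 6). At the low end stood FAS at 0.764 ± 0.282, ENDOG at 0.473 ± 0.418 and BCL2A1 at 0.104 ± 0.179 CPM per kilobase. Neighbours in this order mostly overlapped: in 2 of 28 neighbouring pairs, CYCS over BAD and MCL1 over DIABLO, the gap exceeded the larger SD of the pair. PARP1 and CYCS did not keep this order across libraries: CYCS was the higher in Sham 2, Sham 4 and Sham 6 and PARP1 in Sham 1, Sham 3 and Sham 5, and in the DHCA group CYCS led with 45.5 ± 11.5 against 36.4 ± 5.86 CPM per kilobase. In the DHCA group MCL1 reached 22.6 ± 2.42 CPM per kilobase and ranked 3 in place of 4.

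The scale also orders genes within a role. Among anti-apoptotic genes, sham MCL1 was followed by BCL2L1 at 8.38 ± 2.19 CPM per kilobase. Among effectors, BAK1 at 5.73 ± 1.29 and BAX at 4.35 ± 3.26 CPM per kilobase did not differ beyond their spread, and BOK was at 1.99 ± 1.06. Among necroptosis genes, RIPK1 was at 5.41 ± 1.61, MLKL at 2.08 ± 0.981 and RIPK3 at 0.820 ± 0.336 CPM per kilobase. The pyroptosis genes GSDMD and CASP1, at 2.00 ± 1.61 and 1.83 ± 0.828 CPM per kilobase, could not be ordered.

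**Figure D5:**
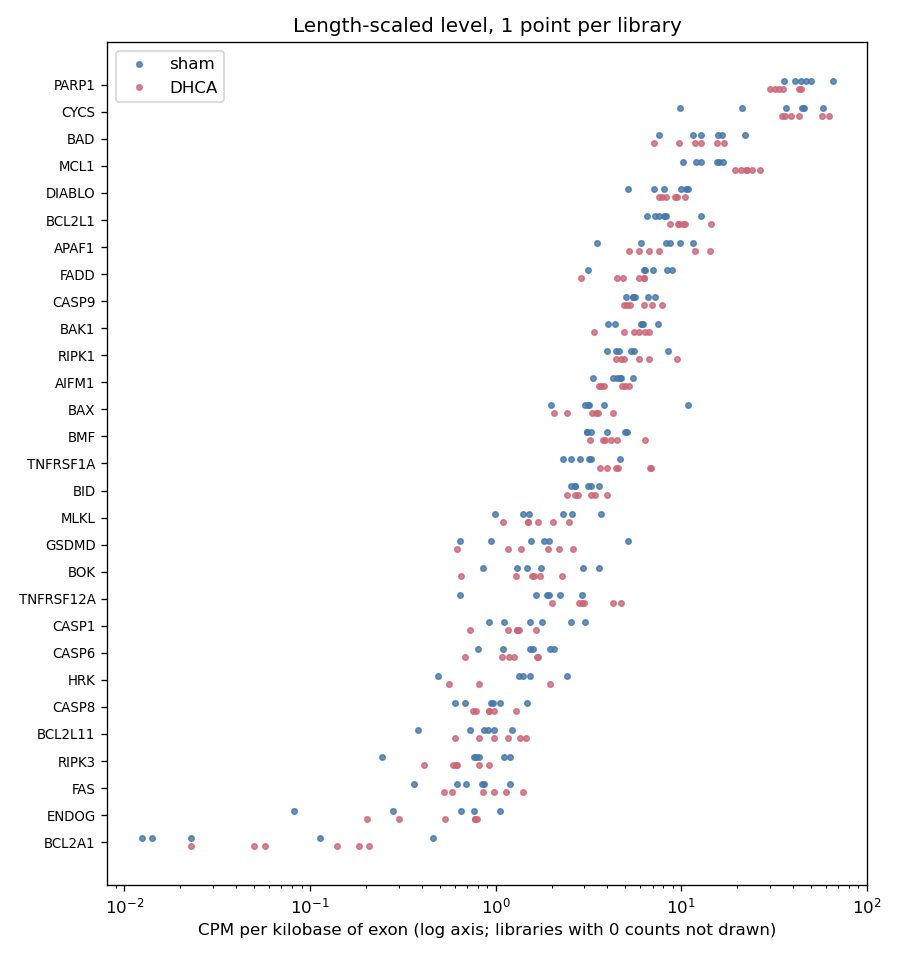
CPM per kilobase of exon (x axis, log scale) of the 29 genes with a row, ordered by their sham mean, with 1 point per library for sham and DHCA and libraries with 0 counts not drawn. PARP1 and CYCS lead, BCL2A1 and ENDOG are lowest, and MCL1 is the gene whose 2 groups of points do not overlap.

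In the wider cell death pathways, 114 further names in 5 lists were looked up, of which 102 were found and 88 tested. Of the 88, 1 was called by edgeR, GADD45A, and 10 (11.4%) had an unadjusted p under 0.05, 9 higher and 1 lower in DHCA, beside 7.9% of all tested genes. Their median log2 fold change was 0.11, with 55 above and 33 below 0, beside -0.003 for all tested genes. The wider BCL-2 family had 0 of 14 genes at an unadjusted p under 0.05 in either direction.

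The p53 target list held the call and the most genes under the unadjusted threshold, 5 of 20 (25.0%), all higher in DHCA, beside 3.43% of all tested genes in that direction. GADD45A, a growth arrest gene switched on by genotoxic stress, had 4.17 to 7.66 CPM in the sham libraries and rose to 11.4 to 21.8 CPM in the DHCA libraries (log2 fold change 1.66, SE 0.22, edgeR adjusted p = 0.00794). Its adjusted p was 0.00532 to 0.0329 with any 1 library left out and 0.107 without Sham 1, Sham 4 and Sham 5, and its log2 fold change there was 1.61. CDKN1A, the cell cycle inhibitor p21, had 2.49 to 8.53 CPM in sham libraries and 4.48 to 17.1 CPM in DHCA libraries (1.38, SE 0.36, adjusted p = 0.188). GADD45B and BTG2, a pair of stress-induced growth arrest genes, were at 1.52 (SE 0.42, adjusted p = 0.235) and 1.02 (SE 0.37, adjusted p = 0.459). In the authors' deposited table the adjusted p of CDKN1A is 0.0264 and that of GADD45B 0.0181. BAX and FAS, p53 targets that act in apoptosis, had log2 fold changes of -0.40 and 0.27.

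In wider death receptor signalling, 12 of 23 tested genes had log2 fold changes above 0 and 11 below, and 1 higher and 1 lower were under the unadjusted threshold (8.70%, beside 7.9% of all tested genes). TNFRSF1B, the second TNF receptor, had 20.3 to 48.0 CPM in sham libraries and 33.7 to 57.2 CPM in DHCA libraries (log2 fold change 0.61, SE 0.21, edgeR adjusted p = 0.415). TRAF5, a TNF receptor adaptor, had 1.25 to 6.40 CPM in sham, highest in Sham 4, and 0.615 to 1.96 CPM in DHCA (-1.22, SE 0.43, adjusted p = 0.425), or -0.86 (adjusted p = 0.955) without Sham 1, Sham 4 and Sham 5. Of 16 tested genes of wider necroptosis and pyroptosis, 2 (12.5%) were under the unadjusted threshold, both on the higher side. TXNIP, which can bind the NLRP3 inflammasome sensor, was at 0.90 (SE 0.31, adjusted p = 0.425), and at 0.41 without Sham 1, Sham 4 and Sham 5. NINJ1, which ruptures the plasma membrane at the end of lytic death, was at 0.69 (SE 0.30, adjusted p = 0.584).

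A reference table of pig gene names places 3 of the 8 names without a row on gene IDs that carry no name in the authors' deposited table. They fall outside the rule and are given as values. PMAIP1, which encodes the BH3-only protein NOXA, had 156 counts in all 12 libraries, with means of 1.28 ± 1.20 CPM (sham) and 2.34 ± 1.17 CPM (DHCA) (log2 fold change 0.81, SE 0.52, edgeR adjusted p = 0.769). XIAP, the main caspase-blocking IAP protein, averaged 56.7 ± 23.6 CPM (sham) and 69.4 ± 17.9 CPM (DHCA) (0.28, SE 0.29, adjusted p = 0.829). BBC3, which encodes PUMA, had 52 counts in all and was not tested. BCL2L2 is placed on an ID that the authors' deposited table names PABPN1, and it was not taken.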

How the data were processed

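Per the file headers, the authors made the deposited raw counts per gene with featureCounts 1.5.1 over exons of Sscrofa11.1, with no strand option and no option to count a read for several genes. Reads of overlapping genes may therefore be lost or misplaced, and 15 of the 29 cell death genes share exon bases with another gene that had counts. Neighbouring genes with 0 counts in the 12 libraries were not looked at, so more of the 29 may share exon bases. DESeq2, featureCounts and Sscrofa11.1 are named in the submitters' processing notes, and an aligner was not given in the sources used here. Of 18 count columns, 12 match the samples, and 6 were not used. The authors' deposited comparison table gives a mean normalised signal, a log2 fold change with SE, a statistic (a score) and p-values, per the file headers. The sign of its statistic is opposite to that of its fold change in all 21223 rows. Its fold change was taken as DHCA minus sham because it correlates with the one computed here at 0.967 across 14004 genes, which are not independent. It has values for 86 genes with 0 counts in the 12 libraries, so other counts also entered it.

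Libraries were placed by title. Counts of all 12 were filtered with filterByExpr, scaled by TMM and fitted with the edgeR 4.0.16 quasi-likelihood test (R 4.3.3), with group as the only term and Benjamini-Hochberg adjustment over 14004 genes. The SE comes from the F statistic. The p-values measure the spread between 6 piglets per group. The fit was tested on simulated counts, with 100 genes changed by log2 1 and 100 by log2 2. At an adjusted p under 0.05 edgeR recovered 38% and 90% of them and called 3 unchanged genes. DESeq2 recovered 60% and 95% and called 27 unchanged genes, and limma-voom with weights 42% and 89% with 4. The simulated libraries kept the depths but not the tissue differences between libraries. Alternatives were upper-quartile factors, DESeq2 size factors, the Wald test of DESeq2 1.42.0, limma 3.58.1 voom with and without quality weights, no filter, 1 CPM in 6 libraries, a replicate block, leaving out libraries, and an adjusted p under 0.10.

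The cell death genes and all lists were chosen with earlier results of these data known, so no list was tested as a set. Where a name had several gene IDs, the one with most counts was used. Values are given in full for genes with an unadjusted p under 0.05, genes called by any tool, and the gene with the highest length-scaled sham level in each role. From the wider lists, up to 4 genes per list and direction were named by smallest p among those with an unadjusted p under 0.05, and 1 gene that this rule takes is not reported here. Coordinates and lengths are those of the count table, and limits from 3 counts cover counting error only.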

Additional observations from a re-analysis of the deposited data

Results flagged for a closer look

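Within the groups of 6 libraries, a single library stood far from the rest for 5 of the 52 combinations of gene and group examined. A rate of about 1 in 20 was taken for chance. The combinations share the same 12 libraries and are not independent, so the count cannot be weighed against that rate. Sham 1 stood far above the other sham libraries for BAX (41.5 CPM), GSDMD (31.8 CPM), RIPK1 (64.8 CPM) and BCL2L1 (104 CPM). DHCA 3 stood far above the other DHCA libraries for BCL2L1 (118 CPM). Sham 1 had 2515816 counts, so 1 CPM stands for 2.58 counts there.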

How the results depend on the processing

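Of the 26 tested cell death genes, 12 kept the direction of their fold change in all 22 alternatives. The 26 calls over all genes became 181 with DESeq2, 207 with limma-voom with quality weights, 8 with a replicate block by the number in the titles, 12 without Sham 1 and 5, 1 without Sham 1, 4 and 5, and 55 at an adjusted p under 0.10. They ranged from 9 to 51 when 1 library was left out: 51, 10, 10 and 11 with Sham 2, 3, 4 and 5 out in turn, and 13, 9, 12 and 12 with DHCA 1, 2, 3 and 4 out. Among the cell death genes, DESeq2 called 1 and limma-voom with weights 1, in place of 0. The 4 genes under an unadjusted p of 0.05 became 2 with the replicate block and 2 to 5 with 1 library left out (2 without DHCA 1), and the median log2 fold change of the 26 ran from -0.06 to 0.04 with 1 library left out and was 0.10 without Sham 1, 4 and 5. No label says that the numbers in the titles pair the piglets. Same-numbered libraries correlated at -0.39 to 0.34, over 0.1 in 2 of 6 pairs. Of the 6 sham libraries, 0 correlated best with their own number. Such correlations cannot show whether the piglets were paired. The cause of the following reversals was not tested. With quality weights BAX was at 0.12, BAD 0.052, APAF1 -0.26, DIABLO -0.16 and GSDMD 0.23. Without Sham 1 and 5, BAX was at 0.18, BAK1 0.083, BAD 0.060, APAF1 -0.16, CYCS -0.031, DIABLO -0.16, MLKL 0.058 and GSDMD 0.41. Without Sham 1, 4 and 5, BAX was at 0.21, BAK1 0.013, BOK 0.16, BAD 0.049, APAF1 -0.15, CYCS -0.042, DIABLO -0.25 and GSDMD 0.31. CASP8 was at 0.0033 with the replicate block. CASP9 was at -0.0037 and DIABLO at -0.033 with upper-quartile factors. DIABLO was at -0.016 with DESeq2 and at -0.023 with unweighted limma-voom, where GSDMD was at 0.11. With 1 library left out, BAX ran from -0.56 to 0.10, BAK1 -0.13 to 0.049, BID -0.016 to 0.12, CASP8 -0.18 to 0.12, CASP9 -0.042 to 0.10, APAF1 -0.11 to 0.23, DIABLO -0.083 to 0.080, RIPK1 -0.012 to 0.33, GSDMD -0.42 to 0.30 and AIFM1 -0.11 to 0.015. Depth limits BCL2A1, HRK, ENDOG, BBC3 and PMAIP1, since 3 counts stand for 0.220 to 2.00 CPM.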
